A study of Mus musculus with 7 samples.

Results

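The Schlafen genes Slfn1, Slfn2, Slfn3, Slfn4, Slfn5, Slfn8 and Slfn9 were followed in whole thymus of mice with altered forms of Ikaros, the zinc finger transcription factor encoded by Ikzf1. They were taken by their names as a gene family, with earlier results of these data known, and all 7 were among the 16734 genes of the deposited table. Levels were given as RPKM, reads over a gene's exons divided by exon length and library size. RNA with poly(A) tails was sequenced from thymus cell suspensions of 4 week old mice in 7 libraries. There were 3 libraries of wild type mice (strain C57BL/6; replicates 1, 2A and 2B), 2 of Ikaros ZnF1-/- mice and 2 of Ikaros ZnF4-/- mice (replicates 1 and 2 each), which carry mutations of zinc finger 1 or zinc finger 4. The labels give neither the strain background of the mutants nor how their alleles were made, and do not say whether libraries came from separate animals, so a p-value measures the spread between these samples.

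Schlafen proteins share an N-terminal domain and fall into short, intermediate and long forms, the long ones carrying a C-terminal region related to helicases. In mice the family is expressed in lymphoid and myeloid cells and takes its name from the German for sleep, because forced expression of Slfn1 slows the growth of T cells. Several members are induced by type I interferon. Ikaros binds DNA through its N-terminal zinc fingers at sites with the core GGGAA, and restrains many genes in developing T cells.

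Replicate 1 of each genotype was read as 76 bp and the other 4 libraries as 50 bp, so the replicate number marks a sequencing run type. The sexes followed the same split: Xist, expressed from the inactive X chromosome, lay between 90.57 and 109.21 RPKM with 76 bp reads but between 0.01 and 0.03 RPKM with 50 bp reads. Read length and sex thus cannot be told apart here, but each genotype had libraries of both kinds. Between 10185 and 10695 genes reached 1 RPKM per library. Whole-read steps in the values put the depth of the 76 bp libraries near 20100000 reads for wild type, 14300000 for ZnF1-/- and 6320000 for ZnF4-/-, whereas no depth could be read from the 50 bp libraries. Ikzf1 itself was abundant, at 162 ± 18.0 RPKM (SD, n = 3) in wild type, 189 ± 7.98 (n = 2) in ZnF1-/- and 248 ± 13.4 (n = 2) in ZnF4-/-. Both libraries of each mutant lay above all wild type libraries. The ZnF4-/- difference of 0.61 ± 0.18 log2 units (SE) was not called by limma (adjusted p = 0.198). It was called by limma with the replicate number as a term in the model (adjusted p = 0.00737). In ZnF1-/- the difference was 0.22 ± 0.18 and was not called either way. A level per gene does not check the loss of a finger. Markers of double-positive thymocytes were all detected (9 of 9, among them Cd4, Cd8a and Rag1). They summed to 3440 to 4298 RPKM in wild type, 3853 to 4296 in ZnF1-/- and 3001 to 3494 in ZnF4-/-. Of these 9, 3 had higher means in ZnF4-/- than in wild type and the others lower means. The 3 were Cd3e at 462 against 406 RPKM, Ptcra at 34.9 against 27.0 and Dntt at 573 against 553, each with overlap. In bulk samples, fewer cells of a type and less RNA per cell cannot be told apart.

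The 7 genes lie together on mouse chromosome 11, over 264 kb at chr11:82764851-83028656 (mm9, GENCODE vM1). From left to right the order is Slfn5, Slfn9, Slfn8, the pseudogene Slfn10-ps, Slfn2, Slfn1, Slfn4 and Slfn3. Slfn9, Slfn8 and Slfn10-ps are transcribed from the minus strand and the others from the plus strand. Slfn1 (82930351 to 82936172, 2 exons, 337 codons) and Slfn2 (82878614 to 82884180, 2 exons, 378 codons) encode the short forms. Slfn3 (83004832 to 83028656, 3 exons, 517 codons) and Slfn4 (82988688 to 83003723, 8 exons, 602 codons) encode the intermediate forms. Slfn5 (82764851 to 82776443, 6 exons, 884 codons), Slfn8 (82815660 to 82834312, 6 exons, 910 codons) and Slfn9 (82793131 to 82805332, 6 exons, 910 codons) encode the long forms.

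The promoters of the 3 genes that rose in ZnF4-/- thymus, Slfn1, Slfn5 and Slfn9, are shown with that of Slfn8, the closest relative of Slfn9, which did not pass the test. Each is the 250 bases before the RefSeq start on chromosome 11 (GRCm38.p6), written 5′ to 3′ on the gene's own strand. Slfn1 is chr11:83116570-83116819 on the plus strand, Slfn5 is chr11:82951852-82952101 on the plus strand, Slfn9 is chr11:82991831-82992080 on the minus strand and Slfn8 is chr11:83020811-83021060 on the minus strand, the more upstream of the Slfn8 starts listed. Capitals mark the Ikaros core GGGAA and an interferon response-type motif of GAAA, any 2 bases and GAAA again (here the GAAA pair), each searched on both strands, so that a match on the other strand appears as TTCCC or as TTTC, any 2 bases and TTTC.
Slfn1: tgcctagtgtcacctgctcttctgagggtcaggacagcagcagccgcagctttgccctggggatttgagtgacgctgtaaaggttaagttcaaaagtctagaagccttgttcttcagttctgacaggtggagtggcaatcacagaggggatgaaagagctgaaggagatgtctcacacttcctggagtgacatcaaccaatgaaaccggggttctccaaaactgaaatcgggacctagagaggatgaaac
Slfn5: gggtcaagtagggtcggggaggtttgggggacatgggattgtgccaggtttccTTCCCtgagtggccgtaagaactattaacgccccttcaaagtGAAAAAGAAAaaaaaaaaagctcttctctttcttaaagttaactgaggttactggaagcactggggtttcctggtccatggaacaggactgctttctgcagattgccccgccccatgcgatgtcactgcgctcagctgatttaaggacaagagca
Slfn9: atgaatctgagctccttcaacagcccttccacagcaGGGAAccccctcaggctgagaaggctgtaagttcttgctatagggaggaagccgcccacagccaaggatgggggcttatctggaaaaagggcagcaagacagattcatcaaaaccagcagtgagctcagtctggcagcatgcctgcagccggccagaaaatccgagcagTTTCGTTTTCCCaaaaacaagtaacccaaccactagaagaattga
Slfn8: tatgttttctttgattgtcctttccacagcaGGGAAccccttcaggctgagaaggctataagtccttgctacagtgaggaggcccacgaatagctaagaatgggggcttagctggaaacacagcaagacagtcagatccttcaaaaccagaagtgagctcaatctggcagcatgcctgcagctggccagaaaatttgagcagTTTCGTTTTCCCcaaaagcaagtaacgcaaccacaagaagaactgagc

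The Slfn1 window held neither motif. In Slfn5, GGGAA stood 197 bases and the GAAA pair 155 bases before the start. In Slfn9, GGGAA stood 214 and 38 bases before the start, and the nearer copy overlapped a GAAA pair at 45 bases. From the more upstream of its listed starts, Slfn8 had nearly the same arrangement. There GGGAA stood at 219 and 41 bases, with an overlapping GAAA pair at 48 bases. That window was 85.124% identical to that of Slfn9 over 242 aligned bases. Before the other Slfn8 start, GGGAA stood at 129 bases and the GAAA pair at 136 bases, so these distances depend on the start chosen. Among the 7 members the GAAA pair was found for Slfn5, Slfn8 and Slfn9, and it occurs in 2.977% of the 32851 RefSeq promoter windows of that length. GGGAA was found once each for Slfn2 and Slfn3 and not for Slfn4, and it occurs in 56.245% of the windows. These matches describe letters in a window, not bound sites.

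Levels in wild type thymus spanned a wide range. Slfn2, which in mice keeps T cells quiescent, was the most abundant member, ranking 629 of 16734 genes by mean RPKM over all libraries. It was followed by Slfn1 at rank 2572 and Slfn5 at rank 4653. Slfn8 overlapped Slfn5 in wild type, and Slfn3 lay lower. Slfn9 was below Slfn3 in range, though their means ± SD overlapped. Slfn4 was lowest, with a mean of 0.769 RPKM over all libraries, under the mean of 1 RPKM required for testing, so 6 of the 7 members were tested among 10498 genes. The summed level of the 7 members was 87.54, 98.07 and 83.98 RPKM in wild type, 94.81 and 99.11 in ZnF1-/-, and 128.2 and 151.8 in ZnF4-/-, where both libraries lay above all others.

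**Figure D1:**
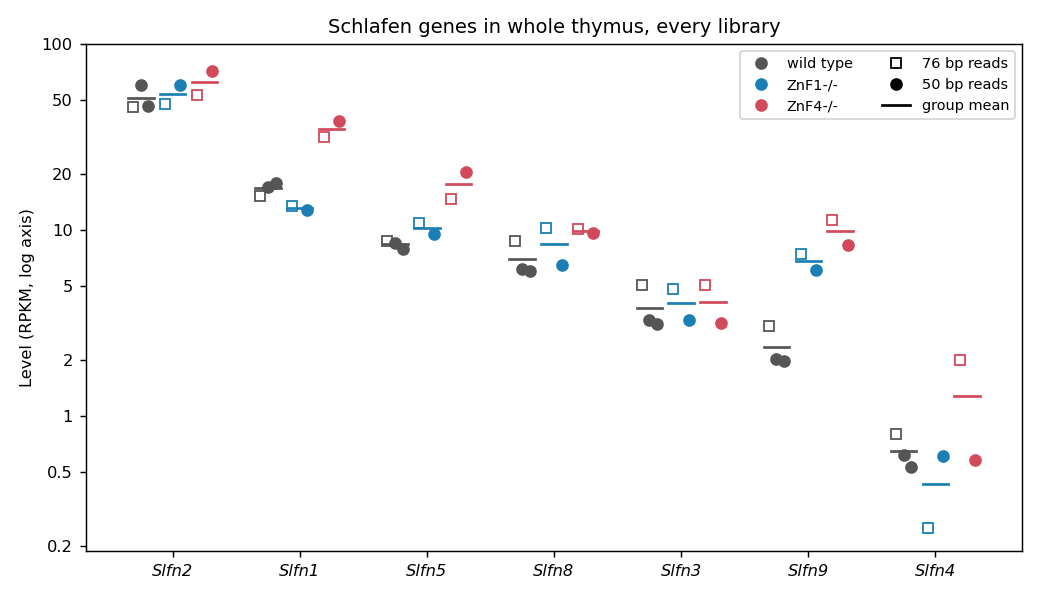
Level of each Schlafen gene (RPKM, log axis) in every library; colours are genotypes, squares 76 bp and circles 50 bp libraries, and lines group means. Slfn1, Slfn5, Slfn8 and Slfn9 of both ZnF4-/- libraries lie above all wild type libraries, and Slfn5 and Slfn9 do so in both ZnF1-/- libraries too.

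In ZnF4-/- thymus against wild type, Slfn1, Slfn5 and Slfn9 rose and no member fell, so 3 of 6 tested members rose, where 2.24% of all tested genes rose and 0.305% fell (limma on log2(RPKM + 0.5), Benjamini-Hochberg adjusted p under 0.05). The median log2 fold change of the 6 was 0.75, beside -0.0456 over all tested genes. Both ZnF4-/- libraries lay above all 3 wild type libraries for 4 of 6 members (Slfn1, Slfn5, Slfn8 and Slfn9), as for 12.5% of all tested genes. With the replicate block, that is with the replicate number as a term in the model, the same 3 members were called and 6.1% of all tested genes rose.

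Among the short forms, Slfn1, the founding member, named for slowing T cell growth, stood at 15.33, 16.94 and 17.97 RPKM in wild type replicates 1, 2A and 2B. It was 31.47 and 38.48 RPKM in ZnF4-/- replicates 1 and 2, and 13.46 and 12.86 RPKM in ZnF1-/- replicates 1 and 2. The ZnF4-/- libraries were thus above, and the ZnF1-/- libraries below, every wild type library, an arrangement found for 1 of 6 members and 1.81% of all tested genes. The change in ZnF4-/- was 1.04 ± 0.15 log2 units (SE; adjusted p = 0.0158, limma), from 16.7 ± 1.33 to 35.0 ± 4.96 RPKM. It was 1.01 within the 76 bp libraries and 1.12 within the 50 bp libraries.

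In ZnF1-/- the change of Slfn1 was -0.33 ± 0.15 log2 units (adjusted p = 1.00, limma; adjusted p = 0.365 with the replicate block), so it did not pass. Set directly against each other, the mutants differed in Slfn1 by 1.37 ± 0.17 log2 units (adjusted p = 0.00728, limma), higher in ZnF4-/- in both libraries. The ratio of Slfn1 to Slfn2, both on the RPKM scale, was 0.28 to 0.387 in wild type, 0.282 and 0.214 in ZnF1-/- and 0.589 and 0.541 in ZnF4-/-, where the libraries of ZnF4-/- lay apart from the rest.

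Slfn2 was 45.87, 60.51 and 46.42 RPKM in wild type, 47.68 and 60.21 in ZnF1-/-, and 53.47 and 71.19 in ZnF4-/-. The groups overlapped. Its change was 0.08 ± 0.21 log2 units in ZnF1-/- and 0.29 ± 0.21 in ZnF4-/- (adjusted p = 1.00 and 0.869, limma), and the replicate block made no call either. Slfn2 made up 41.7% to 61.7% of the family's summed RPKM in a library.

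**Figure D2:**
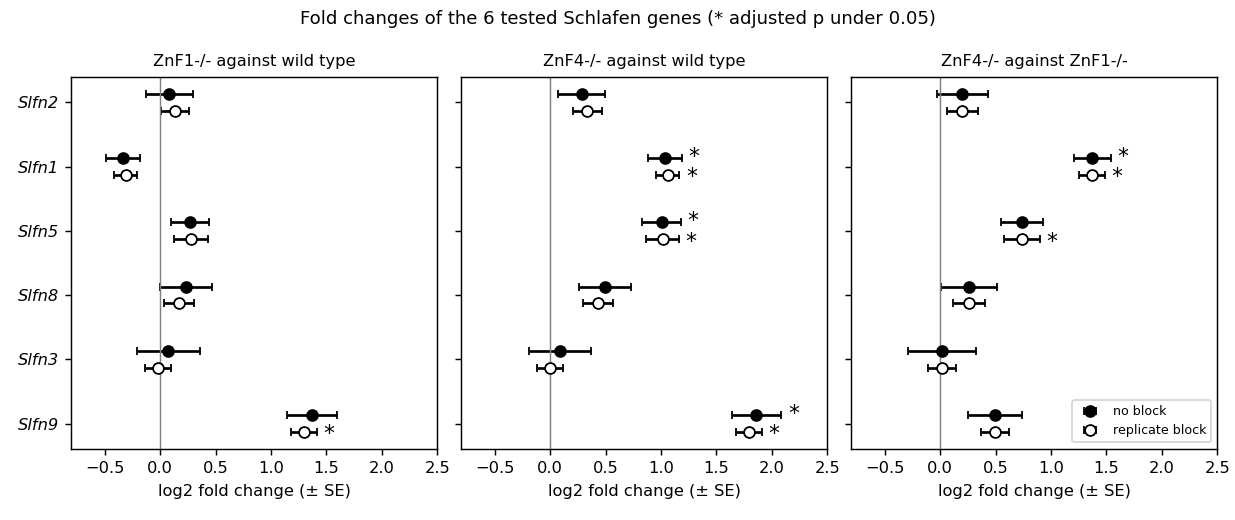
Log2 fold change ± SE of the 6 tested members in each comparison, without (filled) and with (open) the replicate block; asterisks mark adjusted p under 0.05. Slfn1 moved by 1.04 in ZnF4-/- and by -0.33, not called, in ZnF1-/-, while Slfn9 moved by 1.86 and 1.37.

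Among the long forms, Slfn9, a gene of mice closely related to Slfn8, changed most. It stood at 3.06, 2.02 and 1.98 RPKM in wild type replicates 1, 2A and 2B, at 7.46 and 6.11 in ZnF1-/- and at 11.33 and 8.31 in ZnF4-/-. Both libraries of each mutant lay above all wild type libraries, and both of ZnF4-/- above both of ZnF1-/-. Levels that rank ZnF4-/-, ZnF1-/- and wild type in that order in every library were found for 2 of 6 members, Slfn5 and Slfn9, and 1.26% of all tested genes. From 2.35 ± 0.612 RPKM in wild type Slfn9 rose to 9.82 ± 2.14 RPKM in ZnF4-/-, or 4.17-fold, a change of 1.86 ± 0.22 log2 units (adjusted p = 0.00627, limma).

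In ZnF1-/- Slfn9 was 6.79 ± 0.955 RPKM or 2.88-fold the wild type level, a change of 1.37 ± 0.22 log2 units. It did not pass without the replicate block (adjusted p = 0.128, limma) and did with it (1.30 ± 0.12, adjusted p = 0.0032, limma), and it was 1.16 within the 76 bp and 1.40 within the 50 bp libraries. The difference between the mutants was 0.49 ± 0.25 log2 units (adjusted p = 0.678, limma; adjusted p = 0.06 with the block) and was not called. An estimated 238, 412 and 276 reads lay behind Slfn9 in replicate 1 of wild type, ZnF1-/- and ZnF4-/-.

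Slfn5, a long form that in human and mouse cells is induced by type I interferon, was 8.72, 8.51 and 7.95 RPKM in wild type replicates 1, 2A and 2B. It was 10.94 and 9.54 RPKM in ZnF1-/- and 14.72 and 20.41 in ZnF4-/-, with no overlap between the groups. From 8.39 ± 0.398 RPKM it rose to 17.6 ± 4.02 RPKM in ZnF4-/-, a change of 1.01 ± 0.17 log2 units (adjusted p = 0.0295, limma) that was 0.72 within the 76 bp and 1.26 within the 50 bp libraries. In ZnF1-/- the difference was 0.27 ± 0.17 (adjusted p = 1.00, limma). Between the mutants Slfn5 differed by 0.74 ± 0.19 (adjusted p = 0.137, limma), which passed with the replicate block (adjusted p = 0.0325).

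Slfn8, whose mouse protein is known to cleave RNA, was 8.70, 6.19 and 6.01 RPKM in wild type, 10.23 and 6.51 in ZnF1-/- and 10.13 and 9.66 in ZnF4-/-. The ZnF4-/- libraries were above all wild type libraries, but the change of 0.50 ± 0.23 log2 units did not pass (adjusted p = 0.58, limma; adjusted p = 0.111 with the block). The RPKM ratio of Slfn9 to Slfn8 was 0.352, 0.326 and 0.329 in wild type, 0.729 and 0.939 in ZnF1-/- and 1.12 and 0.86 in ZnF4-/-, so it was higher in each mutant library than in any wild type library. In wild type Slfn9 was below Slfn8, and in ZnF4-/- their ranges overlapped.

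Slfn8 and Slfn9 share much sequence, so their reads can be uncertain. Their coding sequences were 92.719% identical, and of the 50-base windows of the Slfn9 transcript 17.571% occurred exactly in another Schlafen gene's exons, falling to 9.11% at 76 bases. For Slfn8 the shares were 15.396% and 7.292%. How the authors' counting placed such reads is not given in the sources used here. The summed level of Slfn8, Slfn9 and Slfn10-ps was 15.7, 10.4 and 9.93 RPKM in wild type, 20.7 and 14.3 in ZnF1-/- and 23.2 and 19.9 in ZnF4-/-. Both ZnF4-/- sums were above all wild type sums, and the ZnF1-/- sums overlapped wild type but were higher within each read length. Slfn1 shared 0.606% of its 50-base windows and the Slfn5 model none, but that model spans 4080 exon bases where the deposited Slfn5 value was scaled by 5995, so the remaining bases were not checked.

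**Figure D3:**
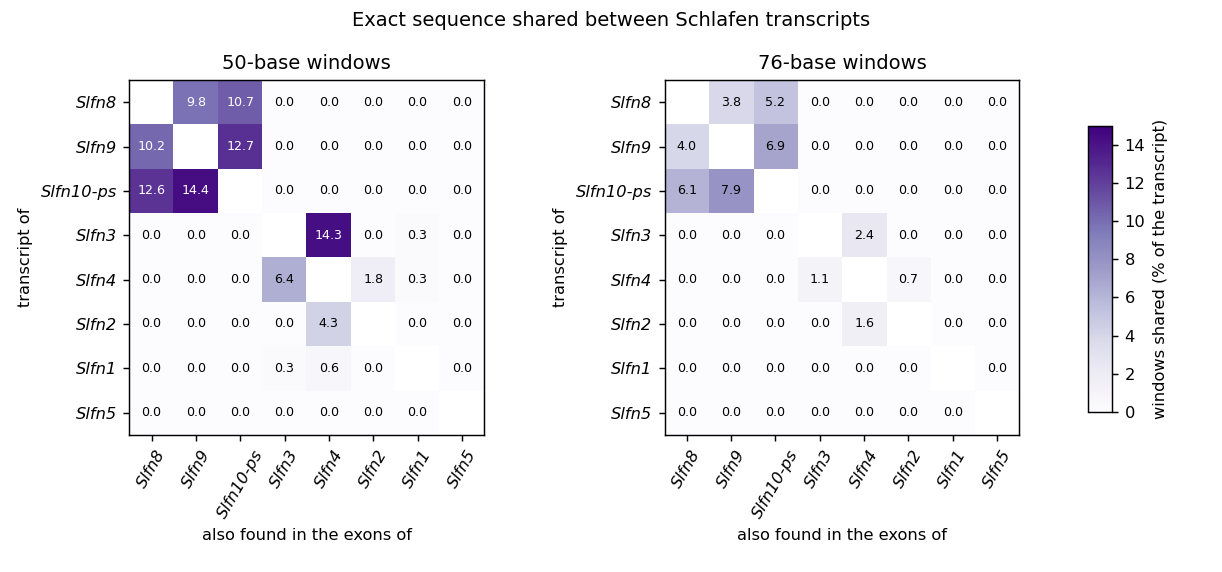
Percent of the 50-base (left) and 76-base (right) windows of each transcript (rows) found exactly in the exons of another Schlafen gene (columns). Slfn8, Slfn9 and Slfn10-ps form a sharing set and Slfn3 and Slfn4 another, and Slfn2 shares 4.272% of its 50-base windows with Slfn4. Slfn1 and Slfn5 share 0.606% and 0 of their 50-base windows (for Slfn5 over a model of 4080 of the 5995 exon bases in the deposited table).

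Of the intermediate forms, Slfn3, studied in mice and rats for its part in the differentiation of gut epithelium, did not differ between genotypes beyond its spread. It was 5.06, 3.28 and 3.12 RPKM in wild type, 4.79 and 3.27 in ZnF1-/- and 5.07 and 3.16 in ZnF4-/-. Each 76 bp library was higher than every 50 bp library, which was the case for 1 of 6 members and 7.18% of all tested genes. Its change was 0.08 ± 0.28 log2 units in ZnF1-/- and 0.09 ± 0.28 in ZnF4-/- (adjusted p = 1.00 and 0.986, limma), and both signs turned with the replicate block (-0.0182 and -0.0023). Slfn3 and Slfn4 were 95.341% identical over their aligned coding bases, and 14.261% of the Slfn3 50-base windows but 2.412% of its 76-base windows were shared.

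Slfn4, known in mice from macrophages and other myeloid cells, was 0.80, 0.62 and 0.53 RPKM in wild type, 0.25 and 0.61 in ZnF1-/- and 1.99 and 0.58 in ZnF4-/-. A single library, ZnF4-/- replicate 1, stood above the rest, and ZnF4-/- replicate 2 lay within wild type. The same library had the highest sum of macrophage and granulocyte markers (10 of 12 listed genes in the table), 618.2 RPKM against 157.2 to 188.5 in wild type, 87.4 and 164.2 in ZnF1-/- and 185.4 in ZnF4-/- replicate 2. The granulocyte genes S100a8 and S100a9 were 296.76 and 236.14 RPKM there, against at most 76.35 and 74.25 in any other library, and none of the 10 markers was at 0. These 2 genes made up most of that sum. The macrophage markers Csf1r, Emr1, Cd68 and Fcgr3 were not higher there than in wild type replicate 1, at 2.92, 0.97, 8.62 and 1.40 RPKM against 3.09, 1.43, 10.01 and 2.11, and Lyz2 and Itgam were higher in ZnF4-/- replicate 2. The part of these cells in the level of Slfn4 was not tested. An estimated 50 reads lay behind Slfn4 in ZnF4-/- replicate 1, against 64 in wild type and 14 in ZnF1-/- replicate 1. Of the Slfn4 50-base windows, 6.438% occurred in the exons of Slfn3 and 1.763% in those of Slfn2, so its reads can be uncertain. With the minimum lowered to a mean of 0.5 RPKM, Slfn4 was 0.52 ± 0.36 log2 units higher in ZnF4-/- than in wild type (adjusted p = 0.79, limma), and was not called.

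Against wild type, 0 of 6 members were called in ZnF1-/- without the replicate block, where 0.0857% of all tested genes were called in either direction. Of the members only Slfn9 had an unadjusted p under 0.05 by limma, and it was the 1 member called with the block, where 0.876% of all tested genes were. The median log2 fold change of the 6 members was 0.159, beside -0.0202 over all tested genes. Both ZnF1-/- libraries lay above all wild type libraries for 2 of 6 members (Slfn5 and Slfn9) and below them for 1 (Slfn1), as for 6.85% and 6.99% of all tested genes. Between ZnF4-/- and ZnF1-/-, 1 of 6 members (Slfn1) was called higher in ZnF4-/- and 2 with the block (Slfn1 and Slfn5), where 2.02% and 5.19% of all tested genes were. Both ZnF4-/- libraries were above both ZnF1-/- libraries for 3 of 6 members (Slfn1, Slfn5 and Slfn9), as for 15.2% of all tested genes. The comparisons of each mutant with wild type share the wild type libraries.

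The calls in ZnF4-/- rest on few libraries. Slfn9 kept its call except without ZnF4-/- replicate 1 or replicate 2, when a single mutant library remained. Slfn1 also lost it without wild type 2A or 2B and with these averaged. Slfn5 lost it in those settings, without ZnF1-/- replicate 2, and in a fit of wild type and ZnF4-/- alone. Over the 17 alternatives tried, the log2 fold change in ZnF4-/- stayed between 0.89 and 1.18 for Slfn1, 0.78 and 1.23 for Slfn5 and 1.65 and 2.07 for Slfn9. The adjusted p ranged from 0.000775 to 0.155, from 0.00496 to 0.21 and from 0.000159 to 0.0746.

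Of the genes that rose in ZnF4-/-, Slfn5 and Slfn9 are neighbours at the left end of the cluster, whereas Slfn1 lies apart, between Slfn2 and Slfn4, neither of which was called. AI662270, a gene within the interval that is not a Schlafen gene, was 39.9 ± 16.2 RPKM in wild type, 45.8 ± 10.5 in ZnF1-/- and 38.5 ± 15.4 in ZnF4-/- and was not called. Of the 10 genes next to the cluster on each side, 11 were tested, and 0 were called in any of the 3 comparisons by limma with or without the block. Their log2 fold changes ran from -0.23 to 0.30 in ZnF4-/- and from -0.30 to 0.17 in ZnF1-/-. Among the neighbours under the filter, Ccl8 was 0.0767 ± 0.0493 RPKM in wild type, 0.155 ± 0.163 in ZnF1-/- and 2.88 ± 0.714 in ZnF4-/-. Both ZnF4-/- libraries lay above all wild type libraries, but Ccl8 was not tested. The neighbour 1700020L24Rik, also not tested, had a lower mean in ZnF4-/-, 0.55 against 0.847 RPKM, with overlap.

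**Figure D4:**
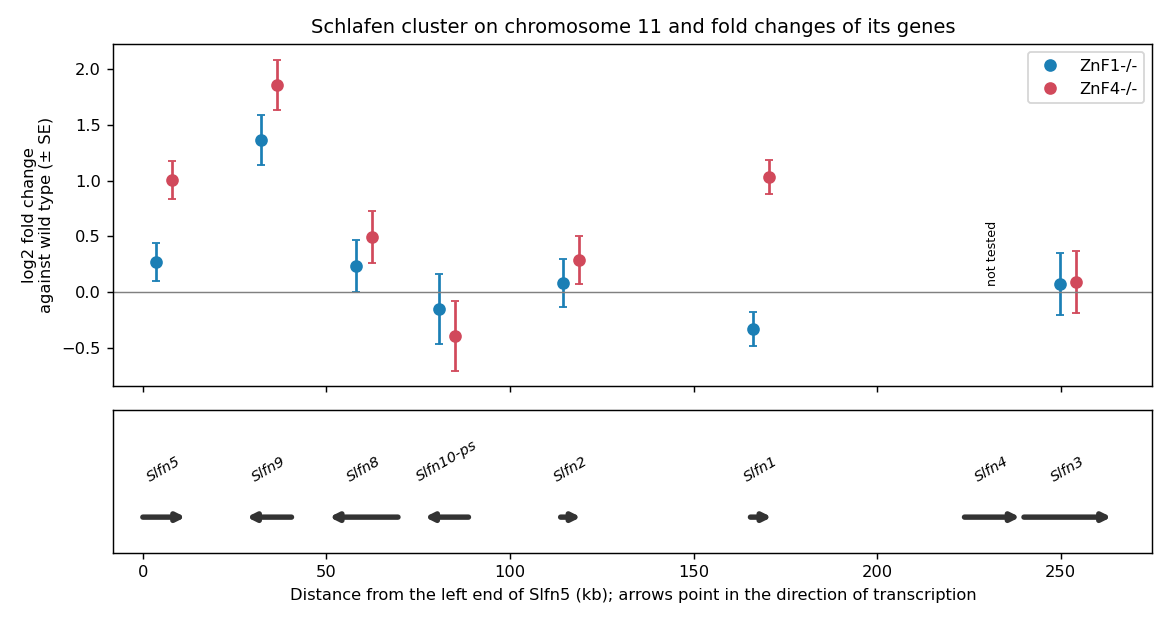
Log2 fold change against wild type ± SE (top) of the genes in the cluster, placed by distance in kb from the left end of Slfn5, with arrows for the direction of transcription (bottom). Slfn9 has the largest changes of the genes drawn, 1.37 and 1.86, and Slfn1 lies between genes that were not called or not tested.

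Interferon-stimulated genes other than Schlafen genes were described beside the family. Of 22 tested, 6 rose and 0 fell in ZnF4-/- against wild type, and 11 rose with the replicate block; their median log2 fold change was 0.674. Oasl2, of the oligoadenylate synthetase family, went from 3.25 ± 0.747 to 11.3 ± 1.77 RPKM (1.66 ± 0.23 log2 units, adjusted p = 0.0116, limma). Ifih1, a sensor of double-stranded RNA, went from 2.58 ± 0.25 to 6.23 ± 1.05 RPKM (1.12 ± 0.17, adjusted p = 0.0179). Xaf1, a regulator of cell death, went from 3.80 ± 0.225 to 7.92 ± 0.615 RPKM (0.97 ± 0.14, adjusted p = 0.0151). In ZnF1-/- 0 of these 22 were called, 1 had an unadjusted p under 0.05, and Bst2 was called with the block; the median was -0.0495.

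Of 10 genes of interferon signalling, 0 were called in ZnF4-/- (4 had an unadjusted p under 0.05), with a median of 0.0609. Among those called with the block, the transcription factors Irf9 and Irf7 rose and Ifngr1, a chain of the interferon gamma receptor, fell. Irf9 was 15.8 ± 1.14 RPKM in wild type and 24.1 ± 6.29 in ZnF4-/- (0.57 ± 0.18 log2 units, adjusted p = 0.268, limma; adjusted p = 0.0261 with the block).

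Genes of mature single-positive thymocytes, the last stage before export, had a median log2 fold change of 0.533 in ZnF4-/- and -0.183 in ZnF1-/-. Of 13 tested, 1 rose in ZnF4-/- (6 with the block): S1pr1, the receptor that guides export, went from 11.1 ± 1.25 to 23.6 ± 3.84 RPKM (1.05 ± 0.18, adjusted p = 0.0283, limma). In ZnF1-/- 0 were called (3 had an unadjusted p under 0.05), and 1, Ms4a6b, fell with the block. T cell quiescence genes (10 tested) had 0 calls in ZnF4-/- by limma, with 1 at an unadjusted p under 0.05 and 1, Foxo1, rising with the block, and a median of -0.0221. Proliferation genes (16 tested) had 0 calls, 0 at an unadjusted p under 0.05, and 1, Pcna, falling with the block, with a median of -0.182. Of the 16, 3 had a positive log2 fold change in ZnF4-/-. Together they summed to 674.6 and 711.2 RPKM in ZnF4-/-, below the 765.4 to 803.3 in wild type and the 779.6 and 796.3 in ZnF1-/-. The sums were not tested. In ZnF1-/- 0 genes of interferon signalling, T cell quiescence or proliferation were called by limma with or without the block. Of the genes of these lists 1, a quiescence gene, had an unadjusted p under 0.05.

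**Figure D5:**
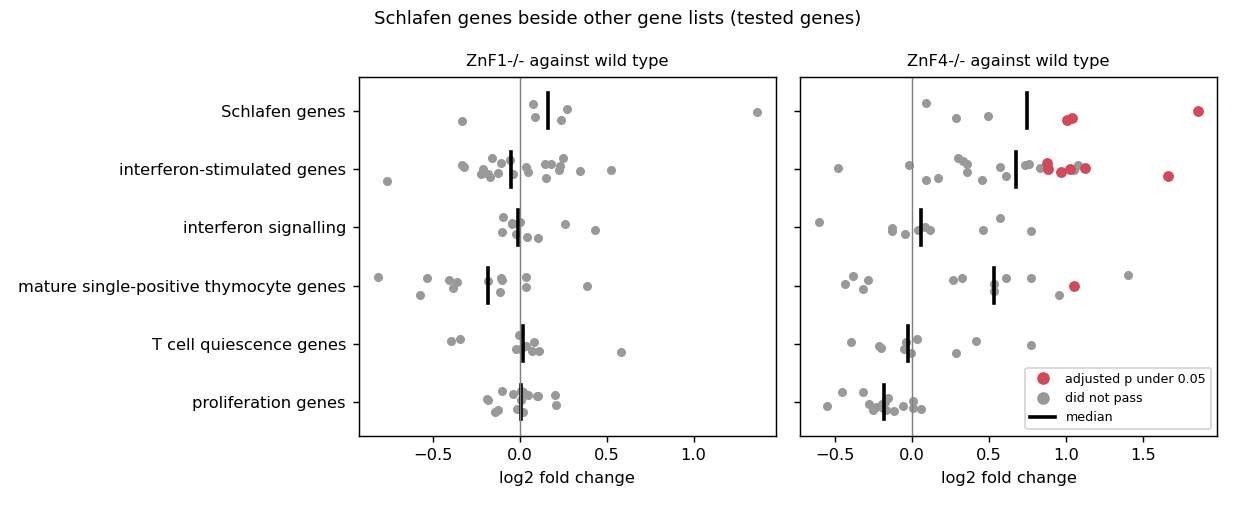
Log2 fold changes against wild type of the tested genes of each list; red points passed an adjusted p under 0.05 and black bars are medians. In ZnF4-/- the Schlafen genes have a median of 0.75 and interferon-stimulated genes one of 0.674, and in ZnF1-/- these are 0.159 and -0.0495.

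Markers of other cells moved with the ZnF4-/- libraries, in which Slfn1, Slfn5 and Slfn9 were high. Markers of NK and innate-like lymphocytes (7 of 7 in the table) summed to 101.8 and 110.0 RPKM in ZnF4-/-, against 50.07 to 65.67 in wild type and 42.42 and 49.79 in ZnF1-/-. Of the 4 tested, Klrd1 and Nkg7 rose, Klrd1 from 0.847 ± 0.17 to 3.77 ± 0.0141 RPKM (1.67 ± 0.19 log2 units, adjusted p = 0.00477, limma). The 3 members under the filter had lower means in ZnF4-/- than in wild type: Klrb1c was 0.14 against 0.533 RPKM, Zbtb16 0.42 against 0.617 and Ncr1 0.12 against 0.17. Regulatory T cell markers (5 of 5) summed to 73.34 and 80.76 RPKM in ZnF4-/- and 54.49 to 60.7 in wild type. Of these, Il2ra was lower in ZnF4-/-, at 11.7 against 16.1 RPKM. Foxp3, at 5.43 against 4.07 RPKM, was not called with or without the block, and Ctla4, Ikzf2 and Tnfrsf18 rose with the block only. Erythroid markers (4 of 4) summed to 48.52 and 62.44 RPKM in ZnF4-/- against 12.16 to 31.83 in wild type. Most of that sum was Hbb-b1, at 44.1 against 15.4 RPKM, while Hba-a1 and Alas2 overlapped wild type. Dendritic cell and thymic epithelial markers summed to at most 4.16 and 4.69 RPKM in any library. B cell markers (6 of 6) summed to 19.17 to 24.36 RPKM in wild type, 26.59 and 35.9 in ZnF1-/- and 14.74 and 18.99 in ZnF4-/-. The part of these cells in the Schlafen levels was not tested.

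The genes most like each member were taken as the 3 with the highest Pearson correlation over the 7 libraries, after centring each read length. For Slfn1 these were Tmem154, Tmem176a and Cd7 (0.9963, 0.9961 and 0.9956). Cd7, a surface protein of T and NK cells, was 16.2 RPKM in wild type, 13.2 in ZnF1-/- and 35.3 in ZnF4-/-. For Slfn9 they were Apobec3, a cytidine deaminase that restricts retroviruses, Myo10 and Cpne3 (0.9944, 0.9943 and 0.9929); Apobec3 had means of 45.1, 54.9 and 60.2 RPKM in the same order. For Slfn8 they were Herc6, Adamts6 and Parp9 (0.9855, 0.9846 and 0.9808), for Slfn5 Mgmt, Adamts6 and Slc23a2 (0.9961, 0.9937 and 0.9925), for Slfn2 Herc4, Deptor and Mlec (0.9882, 0.9727 and 0.9707), and for Slfn3 Ebpl, Snx29 and 2010305A19Rik (0.9892, 0.9848 and 0.982). Within the family the closest pair was Slfn5 and Slfn8 (0.962), and Slfn3 correlated with the others at -0.307 to 0.305. The libraries share genotypes and run types, so these values are descriptions.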

How the data were processed

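The authors deposited RPKM values for 7 libraries. Per the submitters' processing notes, reads were aligned with TopHat to mm9 and bedtools was used. Per the series design text, exonic reads were counted in SeqMonk on the NCBI annotation and 1 transcript per gene was kept. Program versions, strand and the placing of multiply mapping reads are not given in the sources used here. A Slfn5 exon overlaps an antisense gene, 1700003F17Rik, by 77 bases in GENCODE vM1, so without strand their reads cannot be told apart there.

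RPKM values were transformed as log2(RPKM + 0.5), which understates the change of low genes. Genes averaging at least 1 RPKM (10498) were fitted in 1 model of the 3 groups with limma 3.58.1 in R 4.3.3 (eBayes with trend, two-sided, Benjamini-Hochberg adjusted over all tested genes, threshold 0.05). Errors are SD for RPKM and SE for log2 fold changes. The smallest p of a permutation of 3 against 2 libraries is 0.1, so none was run. The fit was tested on simulated data.

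Deviations from the group means correlated by 0.489 to 0.737 across genes in 8 pairs that join different groups within a run type, which the labels tie to the replicate number. Deviations within a group depend on each other, so the 8 pairs are not separate checks. The ZnF1-/- with ZnF4-/- value was 0.6578 in both run types for that reason. The fit with that number as a block lowered the median SE from 0.203 to 0.128, and its values stand beside a result whose call it changes.

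Depth was read from whole multiples of 1 read in genes under 1.2 kb and 3 RPKM (tolerance 0.006 RPKM), where 45.8% to 50.4% of values fitted in the 76 bp libraries. Promoters came from RefSeq (GRCm38.p6; all 7 members matched by symbol), gene models from GENCODE vM1. Sequence windows and identities were computed with Python 3.11.15 and Biopython 1.88. The members are those of the family in the table. Members, gene lists and tests were chosen with earlier results of these data known. Genes of a list are named from those called with or without the block; 1 such gene is not reported here.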

Additional observations from a re-analysis of the deposited data

Results flagged for a closer look

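Slfn1 was flagged because its responses in the mutants differed from each other by a test of the difference itself. ZnF4-/- exceeded ZnF1-/- by 1.37 ± 0.17 log2 units (adjusted p = 0.00728, limma; higher in both ZnF4-/- libraries). It was above wild type in ZnF4-/- and below it in ZnF1-/- in every library, although the ZnF1-/- difference alone did not pass. Without ZnF1-/- replicate 1, ZnF1-/- replicate 2 or ZnF4-/- replicate 2 the number of members called between the mutants was 0. The comparisons with wild type share their control libraries.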

How the results depend on the processing

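Each comparison was recomputed under 17 alternatives. In the fit with the replicate block, the members called went from 0 to 1 in ZnF1-/- against wild type, stayed at 3 in ZnF4-/- against wild type and went from 1 to 2 between the mutants. With wild type 2A and 2B averaged, 1 member was called in ZnF4-/-. Leaving out 1 library gave 0 in ZnF1-/-, 0 to 3 in ZnF4-/- and 0 to 1 between the mutants. Over all tested genes, the block raised the calls from 9 to 92, from 267 to 863 and from 246 to 765, in the same order. The share of calls that were higher went from 88.9% to 65.2%, from 88.0% to 74.2% and from 86.2% to 71.2%. Averaging 2A and 2B gave 130 calls in ZnF4-/-, leaving out 1 library 44 to 253, and applying no filter 596. In ZnF1-/- scaling to a common median gave 17 calls (70.6% higher) and quantile normalization 14 (71.4% higher).

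The signs that turned were of values never called. Slfn3 in ZnF1-/- became -0.0182 (block) and -0.0224 (averaged), with -0.17 to 0.32 on leaving out 1 library. In ZnF4-/- it became -0.0023 (block), -0.0077 (quantile) and -0.0065 (averaged), with -0.21 to 0.39, and between the mutants -0.0744 (quantile), with -0.29 to 0.32. On leaving out 1 library, Slfn2 lay between -0.0824 (without ZnF1-/- replicate 2) and 0.2511 in ZnF1-/-, and between -0.003 (without ZnF4-/- replicate 2) and 0.4066 between the mutants. Slfn8 lay between -0.0727 (without ZnF1-/- replicate 1) and 0.5415 in ZnF1-/-, and between -0.0461 (without ZnF1-/- replicate 2) and 0.568 between the mutants. The cause was not tested. With 2 libraries per mutant, a change that missed the threshold is not shown to be absent, and the unknown depth of the 50 bp libraries limits statements on low genes such as Slfn4.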

Other observations

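Related genes outside the 7 members were also in the table. The pseudogene Slfn10-ps was 3.91, 2.15 and 1.94 RPKM in wild type, 2.98 and 1.67 in ZnF1-/- and 1.75 and 1.91 in ZnF4-/-. Both ZnF4-/- libraries lay below all wild type libraries, but the change of -0.39 ± 0.31 log2 units was not called (adjusted p = 0.886, limma), and it was -0.97 within the 76 bp and -0.08 within the 50 bp libraries. Of its 50-base windows 20.921% occur in other Schlafen exons, so its reads are uncertain. Slfnl1, a Schlafen-like gene outside the cluster, was at most 0.20 RPKM, and Slfn14-ps at most 0.03 RPKM, so neither was tested.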
